A study of Mus musculus with 9 samples.

Results

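Forelimb buds of mouse embryos at E10.5 (E, embryonic day) were sorted by flow cytometry into cells with and without green fluorescent protein (GFP), and the RNA of 3 samples of GFP+ cells was compared with that of 3 samples of GFP- cells. These are 6 of the 9 arrays of the series. The members were chosen by their sample titles alone, and all 45037 probe sets that are not array controls were tested. The control GFP+ cells come from Pax3GFP/+ embryos, in which one Pax3 allele carries the GFP sequence in place of Pax3, so that the other allele is the only source of Pax3 transcripts. For the GFP- cells no genotype stands in the labels, and the methods name Pax3GFP/+ embryos in one place and a Pax3+/+ group in another, so their genotype is not settled. The remaining arrays, of GFP+ cells from Pax3PAX3-FKHR/GFP embryos, enter only the estimate of the spread. The embryos of the screen came from a cross of Pax3GFP/+ females that also carried the PGK-Cre transgene, active in all tissues, with Pax3PAX3-FKHR males, on a C57 BL6/DBA2 background, and no agent was given. Limb buds of many embryos were pooled before the sort, the gates were set on wild-type embryos, and GFP- means every other cell of the bud: mesenchyme, ectoderm, vessels, blood and nerve-associated cells. A sample is therefore a pool and not an animal. The methods call the 3 of each group biological replicates, and p-values measure the spread between them.

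The progenitors of limb skeletal muscle do not arise in the limb itself. Marked by Pax3, they leave the ventrolateral edge of the somite, migrate into the bud under the control of the receptor Met, its ligand scatter factor and the homeobox factor Lbx1, and start the myogenic programme there through Myf5, Myod1 and Myog. The mesenchyme around them comes from the lateral plate and carries its own transcription factors (Prrx1, Tbx5, the posterior Hox genes), while an ectodermal sheet covers both. Pax3 is also a gene of the dorsal neural tube and of the neural crest.

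Values are log2 array levels per probe set. A log2 fold change is the mean of the control GFP+ arrays minus that of the GFP- arrays, and SE is its standard error in the limma fit. The word called is kept for an adjusted p (Benjamini-Hochberg, over all probe sets) under 0.05 together with a log2 fold change of 0.5 or more in either direction. Genes are given on the brightest of their probe sets that carry a single symbol. Counts of called list members stand beside the shares over all genes, 2.79% called higher and 1.93% lower. Replicates are given in the order of their numbers, and the sources do not say whether arrays of the same number share a sort. Levels are compared between arrays and never between genes.

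The GFP+ cells held the transcripts that mark limb muscle progenitors, from 22.6-fold (Met) to 53.6-fold (Myf5) above the GFP- cells. Pax3 had 9.92, 8.94 and 10.22 in the GFP+ cells and 5.17, 5.14 and 4.77 in the GFP- cells, and it was higher on all 3 of its probe sets (log2 fold changes of 4.67, 5.86 and 3.62). Because GFP reports the Pax3 locus, this is a check of the sort and not a finding. Myf5, the first myogenic determination gene, lay at 9.10, 9.19 and 8.92 on the GFP+ arrays against 2.66, 3.19 and 4.13 on the GFP- arrays, a log2 fold change of 5.74 (SE 0.31, adjusted p = 1.12e-05). Lbx1, needed for lateral migration of the progenitors, measured 9.59, 9.68 and 10.11 in GFP+ and 5.14, 4.05 and 5.11 in GFP- cells, a log2 fold change of 5.02 (SE 0.28, adjusted p = 1.38e-05). The lowest GFP+ array lay more than 3 log2 units above the highest GFP- array for Pax3, Myf5 and Lbx1. Eya1, a phosphatase and cofactor of sine oculis proteins, was at 10.25, 10.38 and 9.78 on the control GFP+ arrays and at 5.19, 5.03 and 5.93 on the GFP- arrays, a log2 fold change of 4.75 (SE 0.24, adjusted p = 9.67e-06). A further probe set of Eya1 gave 1.06 (adjusted p = 0.0898) and was not called, while both probe sets of Lbx1 and of Met were.

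Of all probe sets, 827 (1.84%) were called higher in the control GFP+ cells and 1804 (4.01%) lower. Together these are 5.84% of the probe sets. Across all genes, 507 (2.79%) were called higher and 351 (1.93%) lower, of 18193 tested, which makes 4.72% in both directions. The median log2 fold change over all of them was 0.08. All 3 control GFP+ arrays lay above all 3 GFP- arrays for 17.2% of the genes and below them for 6.96%. The 12 genes called higher with the largest changes, all with groups that do not overlap, were Myf5, Lbx1, Eya1, Pax3, Met, Gm2102, Sim2, Sowahb, Sox2, Fabp7, Car3 and Myog, from 5.74 down to 3.90 on the log2 scale. Those called lower were Hoxd10, Zic5, Mpo, Hoxd13, C130021I20Rik, C130075A20Rik, Lhx9, Robo2, Mab21l2, Klf1, Hand2 and Wif1, from -3.22 to -2.32. Sowahb, which encodes an ankyrin repeat protein, had 8.67, 8.59 and 9.32 in the GFP+ cells and 4.15, 4.49 and 5.07 in the GFP- cells. The predicted gene Gm2102 lay at 8.10, 8.19 and 8.77 on the GFP+ arrays against 3.68, 3.89 and 4.12 on the GFP- arrays. Car3, a carbonic anhydrase abundant in slow muscle, measured 8.91, 8.01 and 7.96 in GFP+ and 4.20, 4.26 and 4.68 in GFP- cells. Each of these stood more than 3 log2 units apart between the groups. Klf1 lost its call without control GFP+ replicates 1 or 3 or GFP- replicates 2 or 3 (adjusted p up to 0.0982).

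**Figure D1:**
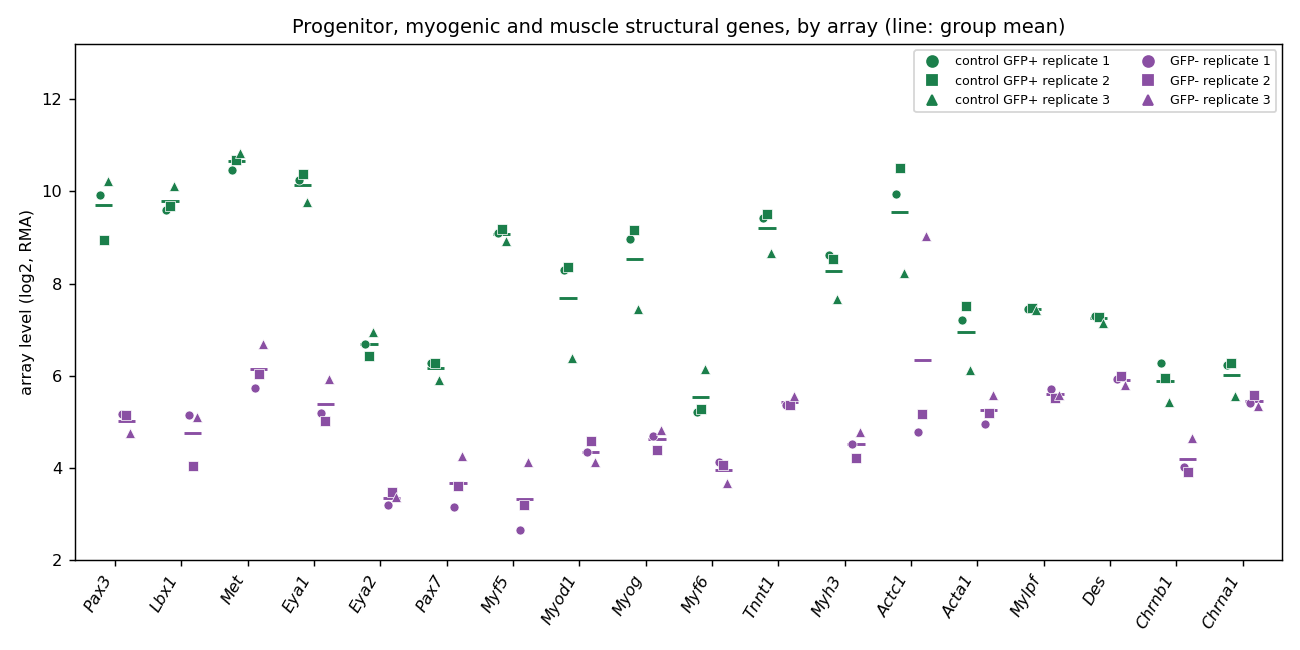
Array level (log2) of progenitor, myogenic and muscle structural genes on the 3 control GFP+ arrays (green) and the 3 GFP- arrays (purple); symbols mark the replicate and short lines the group means. Every control GFP+ array sits above every GFP- array for each gene except Actc1, where GFP- replicate 3 is at 9.03 and control GFP+ replicate 3 at 8.23, and Chrna1, where the groups overlap.

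Before the other results, 3 of the arrays need a description, since several gene groups move with them. Control GFP+ replicate 3 had the largest difference between the 3' and 5' control probe sets of Gapdh (2.64 on the log2 scale, against 1.81 to 1.98 on the other 5 arrays) and of actin (2.26, against 0.86 to 1.07), and the smallest array weight (0.24). For the transferrin receptor control, GFP- replicate 3 was highest (1.24), followed by control GFP+ replicate 3 (1.19), against 0.64 to 0.91 on the rest of the 6 arrays. GFP- replicate 3 carried transcripts of heart muscle: Myh6, the atrial myosin heavy chain, was at 3.62, 3.57 and 3.98 on the control GFP+ arrays and at 3.51, 3.75 and 7.80 on the GFP- arrays, and Myl7, an atrial light chain, had 4.95, 5.12 and 5.36 in the GFP+ cells and 4.75, 4.86 and 6.82 in the GFP- cells. Of 15 cardiac markers, 8 had their highest value of the 6 arrays there, and the list averaged 0.58 above its 6-array mean against -0.16 to -0.06 on the other 5. The summed level of the list (log2) was 8.75 to 8.77 on the control GFP+ arrays, 8.67 and 8.69 on GFP- replicates 2 and 1, and 9.70 on GFP- replicate 3. The cardiac factors Nkx2-5 and Gata4 did not stand out on it, with Nkx2-5 at 5.03, 5.30 and 5.03 and Gata4 at 4.34, 4.29 and 4.37 on the GFP- arrays. GFP- replicate 1 was low in blood: Hba-x, an embryonic globin, lay at 8.06, 10.30 and 6.30 on the GFP+ arrays against 6.76, 12.88 and 13.48 on the GFP- arrays. The first principal component of the 6 arrays (53.9% of the variance) separated the groups, and the second (23.6%) was widest between control GFP+ replicates 2 and 3.

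Most myogenic regulators rose in the GFP+ cells: 19 of 27 were called higher, 0 lower and 8 neither, with a median log2 fold change of 1.95. Both determination and differentiation factors were among them. Myod1, which commits cells to myogenesis, measured 8.29, 8.37 and 6.38 in GFP+ and 4.35, 4.59 and 4.13 in GFP- cells, a log2 fold change of 3.33 (SE 0.45, adjusted p = 0.00226). Myog, which drives differentiation, was at 8.98, 9.17 and 7.45 on the control GFP+ arrays and at 4.70, 4.38 and 4.82 on the GFP- arrays, a log2 fold change of 3.90 (SE 0.43, adjusted p = 7.33e-04). Control GFP+ replicate 3 was the lowest of its group for both, and above every GFP- array. Myf6, the gene of Mrf4, had 5.20, 5.28 and 6.15 in the GFP+ cells and 4.12, 4.06 and 3.68 in the GFP- cells, a log2 fold change of 1.59 (SE 0.23, adjusted p = 0.00324). Here the same array was the highest of its group. Pax7, the paralogue of Pax3 that later marks satellite cells, lay at 6.29, 6.29 and 5.92 on the GFP+ arrays against 3.16, 3.61 and 4.25 on the GFP- arrays, a log2 fold change of 2.49 (SE 0.24, adjusted p = 3.27e-04).

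Other regulators were called as well. Sim1 and Sim2, paralogous bHLH-PAS factors, had log2 fold changes of 2.93 and 4.31. Vgll2 and Vgll3, cofactors of Tead proteins, had 2.80 and 3.22. Sim2 measured 7.99, 7.91 and 8.82 in GFP+ and 3.99, 4.15 and 3.64 in GFP- cells, while Vgll3 was at 7.21, 7.02 and 6.63 on the control GFP+ arrays and at 3.30, 3.81 and 4.08 on the GFP- arrays. Neither gene overlapped between the groups. None of Mef2a, Mef2c and Mef2d was called. Mef2c, whose protein works with the myogenic bHLH factors, had 8.14, 9.08 and 6.87 in the GFP+ cells and 6.38, 6.55 and 7.45 in the GFP- cells, at 1.24 (adjusted p = 0.202). Control GFP+ replicate 3 lay among the GFP- arrays, and without it Mef2c was called higher, at 1.82 (adjusted p = 0.0416).

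Among the sine oculis homeobox (Six2, Six4, Six5), Eya and Dach genes, 4 of 9 were called higher and 0 lower. Eya2 lay at 6.69, 6.43 and 6.96 on the GFP+ arrays against 3.21, 3.47 and 3.37 on the GFP- arrays, a log2 fold change of 3.34 (SE 0.21, adjusted p = 2.61e-05). The other calls were Eya1, Six2 (log2 fold change 1.63) and Dach2 (1.69), while Eya3 (0.20) and Eya4 (0.03) were not called. Six4, a factor upstream of Pax3 in the hypaxial somite, measured 8.66, 8.55 and 7.81 in GFP+ and 7.95, 7.87 and 8.13 in GFP- cells, at 0.36 (adjusted p = 0.361). Control GFP+ replicate 3 was the lowest of the 6 arrays, and Six4 was called higher without control GFP+ replicate 3, at 0.63 (adjusted p = 0.0341).

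Genes of the contractile apparatus were higher in part, and some of them on GFP- replicate 3 too. Of 35 sarcomere genes, 14 were called higher and 0 lower, with a median of 1.08. Tnnt1, slow skeletal troponin T, was at 9.43, 9.52 and 8.66 on the control GFP+ arrays and at 5.37, 5.36 and 5.56 on the GFP- arrays, a log2 fold change of 3.77 (SE 0.22, adjusted p = 1.94e-05). Myh3, embryonic myosin heavy chain, had 8.62, 8.54 and 7.67 in the GFP+ cells and 4.53, 4.22 and 4.79 in the GFP- cells, a log2 fold change of 3.76 (SE 0.28, adjusted p = 6.93e-05). Mylpf, a fast light chain, lay at 7.45, 7.47 and 7.42 on the GFP+ arrays against 5.72, 5.51 and 5.59 on the GFP- arrays, a log2 fold change of 1.84 (SE 0.19, adjusted p = 5.37e-04). The groups stood well apart for all 3, and the GFP+ arrays of Mylpf were nearly level. Acta1, skeletal alpha actin, measured 7.21, 7.52 and 6.13 in GFP+ and 4.96, 5.20 and 5.59 in GFP- cells, a log2 fold change of 1.70 (SE 0.34, adjusted p = 0.0148). Des, the muscle intermediate filament, was at 7.31, 7.28 and 7.15 on the control GFP+ arrays and at 5.92, 5.99 and 5.79 on the GFP- arrays, a log2 fold change of 1.34 (SE 0.23, adjusted p = 0.00698). Acta1 lost its call without control GFP+ replicate 1 or GFP- replicates 1 or 2 (adjusted p up to 0.0612).

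Actc1, cardiac alpha actin, which embryonic skeletal muscle also uses, had 9.95, 10.503 and 8.23 in the GFP+ cells and 4.79, 5.18 and 9.03 in the GFP- cells, and was not called, at 3.23 (adjusted p = 0.0775). Tnnt2 lay at 7.20, 7.21 and 5.90 on the GFP+ arrays against 4.31, 4.24 and 8.11 on the GFP- arrays, and Ttn, the giant spring protein, measured 7.35, 6.82 and 5.40 in GFP+ and 4.33, 4.22 and 7.47 in GFP- cells. For each of them GFP- replicate 3 lay among or above the GFP+ arrays, as did Myh6 and Myl7 of the heart. Without that array Actc1 was called higher at 4.58 (adjusted p = 0.0024). The same held for Tnnt2, at 2.50 (adjusted p = 0.0136), and for Ttn, at 2.24 (adjusted p = 0.0314). The sarcomere count was 14 with all arrays, 13 to 21 when 1 array was left out (21 without GFP- replicate 3), and 23 without both arrays numbered 3, a pair left out after the values were seen. Cardiac muscle markers move with these values as given above, and their part in the result was not tested.

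Of 22 genes of excitation and of the neuromuscular junction, 7 were called higher and 0 lower, with a median of 0.53. Chrnb1, the beta subunit of the acetylcholine receptor, was at 6.27, 5.95 and 5.43 on the control GFP+ arrays and at 4.02, 3.90 and 4.65 on the GFP- arrays, a log2 fold change of 1.70 (SE 0.25, adjusted p = 0.00362). The alpha subunit gene Chrna1 had 6.24, 6.28 and 5.56 in the GFP+ cells and 5.42, 5.59 and 5.35 in the GFP- cells, at 0.57 (adjusted p = 0.225), Chrnd was at 0.16 (adjusted p = 0.547) and the receptor kinase gene Musk at 0.23 (adjusted p = 0.325). Scn3b, a sodium channel subunit, lay at 6.27, 5.95 and 5.84 on the GFP+ arrays against 3.30, 3.43 and 3.91 on the GFP- arrays, a log2 fold change of 2.48 (SE 0.19, adjusted p = 9.41e-05). Its groups did not overlap, whereas those of Chrna1 did. Ryr1, the calcium release channel, had 0.75 (adjusted p = 0.0267). Ryr1 lost its call without control GFP+ replicates 1 or 2 or GFP- replicates 1, 2 or 3 (adjusted p up to 0.0862). The count ran from 3 without GFP- replicate 1 to 11 without control GFP+ replicate 3 and was 4 without control GFP+ replicate 1, GFP- replicate 2 or GFP- replicate 3.

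Promoters of called muscle genes are shown because the E-box CAGCTG, the site bound by dimers of myogenic bHLH factors with E proteins, stands before the transcription start in 3 of them. The 6 core muscle genes called higher all have a window in the RefSeq promoter table (GRCm38.p6), and 3 hold CAGCTG in the 250 bases before the start. These 3 were chosen after the search, and each sequence ends at the base before the start. Capitals mark CAGCTG in each, and in Acta1 also the CArG box, the site of serum response factor, and the MCAT motif CATTCC, the site of Tead factors.
Acta1 (chr8:123894776-123895025, minus strand): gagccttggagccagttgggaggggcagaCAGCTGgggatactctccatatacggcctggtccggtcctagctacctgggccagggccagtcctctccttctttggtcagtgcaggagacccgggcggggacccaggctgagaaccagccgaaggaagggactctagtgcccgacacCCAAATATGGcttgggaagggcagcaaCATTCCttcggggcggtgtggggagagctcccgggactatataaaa
Des (chr1:75360042-75360291, plus strand): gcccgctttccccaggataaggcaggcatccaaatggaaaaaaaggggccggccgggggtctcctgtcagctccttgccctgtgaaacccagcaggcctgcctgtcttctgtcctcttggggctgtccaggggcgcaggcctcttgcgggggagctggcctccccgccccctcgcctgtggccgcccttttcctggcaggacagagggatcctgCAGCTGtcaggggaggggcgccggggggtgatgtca
Mylpf (chr7:127211358-127211607, plus strand): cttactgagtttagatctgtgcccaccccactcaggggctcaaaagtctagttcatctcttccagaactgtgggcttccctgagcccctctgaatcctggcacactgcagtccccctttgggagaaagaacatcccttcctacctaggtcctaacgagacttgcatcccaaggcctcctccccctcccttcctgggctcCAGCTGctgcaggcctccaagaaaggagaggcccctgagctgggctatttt
In Acta1, CAGCTG starts 221 bases, the CArG box 73 and CATTCC 46 bases before the transcription start. CAGCTG starts 36 bases before that of Des and 51 before that of Mylpf. Myh3, Tnnt1 and Chrnb1 hold other E-boxes (CANNTG) but no CAGCTG there, and Chrnb1 has CATTCC 21 bases before the start. Over windows of 300 bases, 250 before and 50 after the start, searched on both strands, CAGCTG was found for 8 of the 17 sarcomere and neuromuscular genes called higher that have a window (47.1%) and for 16.1% of all 27025 genes of the table. CANNTG, which includes it, was found for 16 of the 17 (94.1%) against 72.1%, and CATTCC for 5 (29.4%) against 14.6%. The MEF2 site was found for 2 (11.8%) against 3.26%, and the CArG box for 1 (5.88%) against 1.57%, counts too small to compare. For all genes called higher or lower no share is given, since windows were found for 382 of 507 and 262 of 351 of them, too small a part of each set. A match is a description of the letters only.

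Of the migration system, Met and Cxcr4 were higher in the GFP+ cells and Hgf was lower. The receptor gene Met measured 10.47, 10.68 and 10.83 in GFP+ and 5.75, 6.04 and 6.69 in GFP- cells, a log2 fold change of 4.50 (SE 0.22, adjusted p = 9.67e-06). Hgf, which encodes its ligand scatter factor, went the other way: it was at 6.25, 6.11 and 6.38 on the control GFP+ arrays and at 7.28, 7.33 and 8.03 on the GFP- arrays, a log2 fold change of -1.30 (SE 0.27, adjusted p = 0.0204). Met and Hgf showed no overlap of the groups. Cxcr4, the receptor of a second guidance system of these cells, had 6.48, 7.13 and 6.55 in the GFP+ cells and 3.76, 3.97 and 4.10 in the GFP- cells, a log2 fold change of 2.78 (SE 0.27, adjusted p = 3.23e-04). Its ligand gene Cxcl12 lay at 9.30, 9.19 and 9.46 on the GFP+ arrays against 9.09, 8.98 and 8.93 on the GFP- arrays, which was not called, at 0.32 (adjusted p = 0.237), although its groups do not overlap. Gab1, the adaptor downstream of Met, was at 0.34 (adjusted p = 0.177). Of 11 migration genes, 3 were called higher and 2 lower, the second of these being Epha4, an ephrin receptor, at -1.67 (adjusted p = 0.00852). Hgf lost its call without control GFP+ replicates 1 or 2 or GFP- replicate 3 (adjusted p up to 0.0664). With it, the count of lower genes went to 1.

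**Figure D2:**
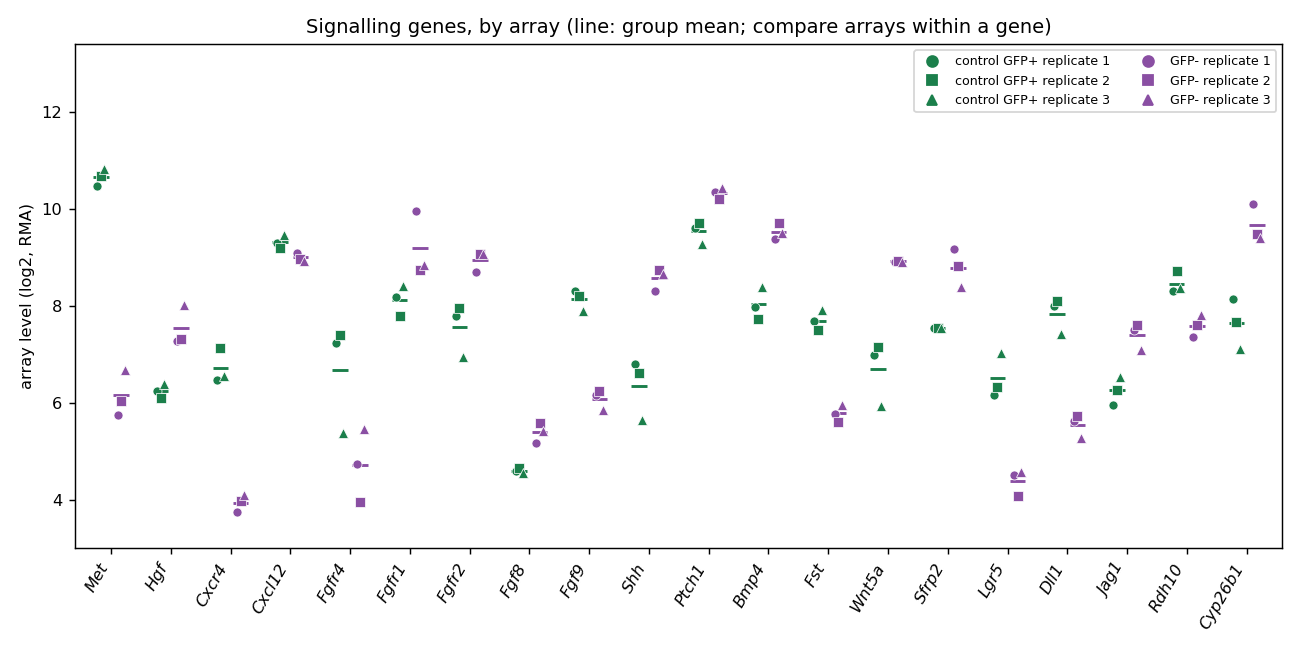
Array level (log2) of ligand, receptor and inhibitor genes on the 3 control GFP+ arrays (green) and the 3 GFP- arrays (purple), with group means as short lines. Met and Cxcr4 are higher in the GFP+ arrays, Hgf, Wnt5a, Bmp4, Shh and Cyp26b1 lower, and Cxcl12, Fgfr4 and Fgfr1 were not called.

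Most markers of limb mesenchyme were called lower in the GFP+ cells. Of 30 mesenchyme markers, 21 were called lower, 0 higher and 9 neither, with a median of -1.59. Prrx1, a homeobox factor of limb mesenchyme, measured 9.04, 9.0 and 9.55 in GFP+ and 11.12, 11.31 and 10.89 in GFP- cells, a log2 fold change of -1.91 (SE 0.25, adjusted p = 0.00215), and 5 of its 6 probe sets were called lower. Tbx5, which specifies the forelimb, was at 7.53, 7.26 and 7.51 on the control GFP+ arrays and at 8.98, 9.04 and 9.29 on the GFP- arrays, a log2 fold change of -1.67 (SE 0.16, adjusted p = 2.72e-04). Lhx2, a LIM factor of the distal bud, had 6.01, 5.61 and 6.06 in the GFP+ cells and 7.90, 8.01 and 7.98 in the GFP- cells, a log2 fold change of -2.07 (SE 0.22, adjusted p = 5.94e-04). Msx1, a homeobox factor of the progress zone, lay at 7.78, 7.65 and 8.05 on the GFP+ arrays against 9.87, 9.68 and 9.39 on the GFP- arrays, a log2 fold change of -1.82 (SE 0.22, adjusted p = 0.0013). The groups did not overlap for any of these. Hand2, of the posterior bud, had -2.33, Emx2 -1.81, Tbx2 -2.05 and Msx2 -2.11. Meis2 and Sall4, at 0.01 and -0.05, were not called. Fgf10, the mesenchymal growth factor for the ridge, measured 5.28, 5.27 and 5.21 in GFP+ and 5.08, 5.27 and 5.0 in GFP- cells and was not called, at 0.14 (adjusted p = 0.513). In bulk samples, fewer cells of a type and less RNA per cell cannot be told apart.

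Hox genes, which set position along the body and limb axes, were called in both directions. Of 33 genes with a probe set, 6 were called lower and 3 higher. The lower ones were Hoxd8, Hoxd9, Hoxd10, Hoxd11, Hoxd13 and Hoxa10, so that 5 of the 6 lie in the Hoxd cluster. Hoxd10 was at 6.29, 6.28 and 5.67 on the control GFP+ arrays and at 9.60, 9.10 and 9.19 on the GFP- arrays, a log2 fold change of -3.22 (SE 0.24, adjusted p = 6.72e-05). Hoxd9 had 7.55, 7.39 and 7.49 in the GFP+ cells and 9.82, 9.76 and 9.66 in the GFP- cells, a log2 fold change of -2.27 (SE 0.19, adjusted p = 1.55e-04). Hoxd13, of the digit region, lay at 7.29, 7.62 and 6.28 on the GFP+ arrays against 9.88, 10.01 and 9.79 on the GFP- arrays, a log2 fold change of -2.83 (SE 0.45, adjusted p = 0.00528). None of these overlapped between the groups, and GFP+ arrays of Hoxd13 were the most scattered. Hoxd11 had -1.36 (adjusted p = 0.0052) and Hoxd12 -0.34 (adjusted p = 0.15), which was not called. The higher ones were Hoxb1, Hoxa2 and Hoxb9. Hoxb1 measured 5.28, 4.92 and 6.15 in GFP+ and 3.84, 3.93 and 3.72 in GFP- cells, a log2 fold change of 1.62 (SE 0.27, adjusted p = 0.00703). Hoxa2 was at 7.32, 6.83 and 7.70 on the control GFP+ arrays and at 6.10, 6.41 and 5.99 on the GFP- arrays, a log2 fold change of 1.12 (SE 0.24, adjusted p = 0.0204). The call ended without single arrays for Hoxa2 (control GFP+ replicate 1 or GFP- replicates 1 or 3), Hoxa10 (control GFP+ replicates 1 or 2 or GFP- replicates 1 or 3), Hoxb9 (control GFP+ replicates 2 or 3 or GFP- replicates 1, 2 or 3) and Hoxd8 (control GFP+ replicates 1 or 2 or GFP- replicates 1, 2 or 3), with adjusted p values of up to 0.123.

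Of the Hoxa genes that pattern the limb with those of Hoxd, Hoxa10 was called. Hoxa9 had 11.51, 11.38 and 11.76 in the GFP+ cells and 11.99, 12.34 and 12.53 in the GFP- cells and was at -0.73 (adjusted p = 0.0793). A further probe set of Hoxa9 was called lower, at -0.96 (adjusted p = 0.0134). Hoxa11, of the forearm region, lay at 8.22, 8.33 and 8.88 on the GFP+ arrays against 8.42, 8.30 and 7.70 on the GFP- arrays and was at 0.33 (adjusted p = 0.414), with overlapping groups, and Hoxa13 was at -0.05 (adjusted p = 0.833). The difference between the clusters was not tested. No gene of the Hoxc cluster was called. The count of Hox genes called higher was 1 without GFP- replicate 1.

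**Figure D3:**
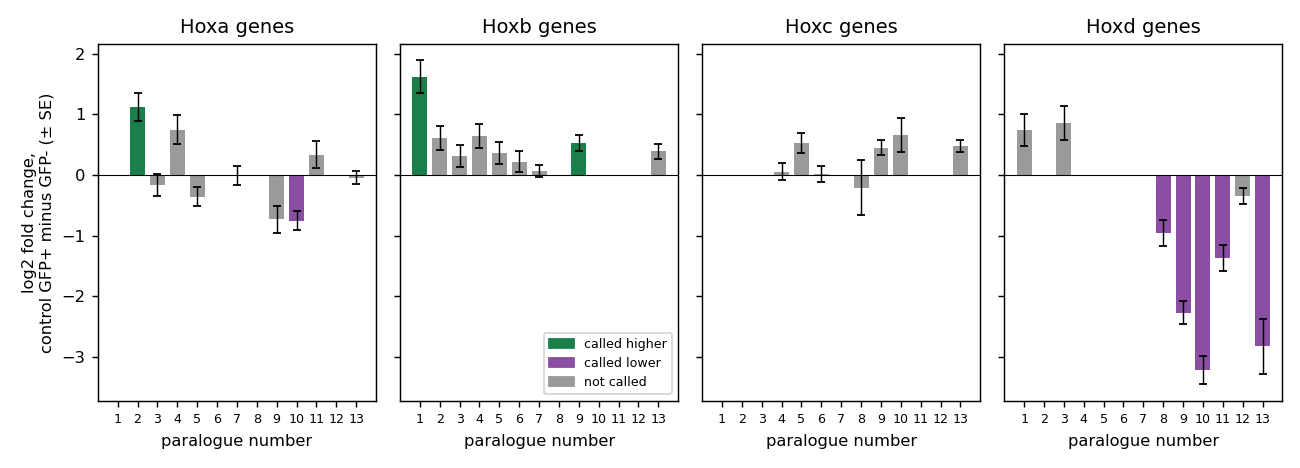
Log2 fold change (control GFP+ minus GFP-) with its standard error for 33 Hox genes, by cluster and paralogue number. Hoxd8 to Hoxd11 and Hoxd13 lie below 0, down to -3.22 for Hoxd10, while the called genes above 0 are Hoxb1, Hoxa2 and Hoxb9; a number without a bar has no value here, apart from Hoxa7, which is at -0.01.

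Signalling genes were called in both directions. Of 25 FGF pathway genes, 4 were called higher (Fgf5, Fgf9, Dusp4, Sulf1) and 5 lower (Fgf8, Fgfr2, Spry1, Dusp6, Il17rd). Fgf9 measured 8.30, 8.20 and 7.90 in GFP+ and 6.15, 6.25 and 5.85 in GFP- cells, a log2 fold change of 2.05 (SE 0.17, adjusted p = 1.27e-04). It stood on the list of limb ectoderm, where it is a ridge gene, and was the only one of 34 ectoderm markers called higher. Fgf8, the growth factor of the ridge, was at 4.60, 4.65 and 4.55 on the control GFP+ arrays and at 5.18, 5.58 and 5.41 on the GFP- arrays, a log2 fold change of -0.79 (SE 0.15, adjusted p = 0.0112). Dusp4 and Dusp6, phosphatases of the MAP kinases, were called in opposite directions. Dusp4 had 9.94, 9.96 and 10.22 in the GFP+ cells and 7.92, 7.90 and 7.79 in the GFP- cells, a log2 fold change of 2.17 (SE 0.14, adjusted p = 3.52e-05). Dusp6 lay at 8.79, 9.13 and 8.01 on the GFP+ arrays against 9.74, 9.94 and 10.12 on the GFP- arrays, a log2 fold change of -1.29 (SE 0.25, adjusted p = 0.0135). The groups did not overlap for any of these genes. Fgf5 was at 1.95 (adjusted p = 0.00287), and Spry1, a feedback inhibitor, was at -1.13 (adjusted p = 0.031).

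Of the FGF receptors, 1 was called. Fgfr4, a receptor of muscle progenitors, measured 7.24, 7.41 and 5.38 in GFP+ and 4.74, 3.97 and 5.46 in GFP- cells, at 1.95 (adjusted p = 0.0504), with control GFP+ replicate 3 among the GFP- arrays. It was called higher without that array, at 2.60 (adjusted p = 0.0049), and without GFP- replicate 3, at 2.32 (adjusted p = 0.0486). Fgfr2 was lower, at -1.38 (adjusted p = 0.0242), and Fgfr1 was at -1.06 (adjusted p = 0.117). Calls that ended when 1 array was left out were those of Fgfr2 (GFP- replicates 1, 2 or 3), Spry1 (GFP- replicates 1, 2 or 3), Dusp6 (GFP- replicate 3), Sulf1 (control GFP+ replicates 1 or 2 or GFP- replicates 1, 2 or 3) and Il17rd (control GFP+ replicate 1 or GFP- replicates 2 or 3), with adjusted p values of up to 0.0945. The count of FGF genes called lower ran from 1, without GFP- replicate 3, to 5, and was 3 without GFP- replicate 1 and 2 without GFP- replicate 2.

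Shh, the morphogen of the posterior margin, was at 6.80, 6.62 and 5.65 on the control GFP+ arrays and at 8.31, 8.73 and 8.66 on the GFP- arrays, a log2 fold change of -2.21 (SE 0.29, adjusted p = 0.00186). Its receptor and target Ptch1 had 9.62, 9.72 and 9.28 in the GFP+ cells and 10.36, 10.19 and 10.42 in the GFP- cells, a log2 fold change of -0.79 (SE 0.15, adjusted p = 0.0109). Hhip, which binds the ligand and is also a target, lay at 5.41, 5.45 and 5.30 on the GFP+ arrays against 4.46, 4.66 and 4.26 on the GFP- arrays, a log2 fold change of 0.93 (SE 0.13, adjusted p = 0.0029). The GFP+ arrays lay below all GFP- arrays for Shh and Ptch1 and above them for Hhip. Gli1, a further target, measured 6.47, 6.39 and 6.86 in GFP+ and 7.79, 6.84 and 6.32 in GFP- cells and was not called, at -0.41 (adjusted p = 0.541). Of 12 Hedgehog genes, 1 was called higher and 3 lower, Cdon, a co-receptor, at -1.0 (adjusted p = 0.0112) among these.

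Of 48 Wnt genes, 11 were called lower and 5 higher. Of the lower ones, 9 encode secreted proteins. Wnt5a, of the distal mesenchyme, was at 6.99, 7.16 and 5.94 on the control GFP+ arrays and at 8.91, 8.93 and 8.91 on the GFP- arrays, a log2 fold change of -2.22 (SE 0.34, adjusted p = 0.00454). Dkk1, an inhibitor, had 4.68, 4.94 and 5.09 in the GFP+ cells and 6.63, 6.72 and 6.76 in the GFP- cells, a log2 fold change of -1.80 (SE 0.14, adjusted p = 8.61e-05). Also lower were the inhibitors Wif1 (-2.32), Sfrp2 (-1.25), Sfrp1 (-0.90) and Frzb (-1.33), the R-spondins Rspo1 (-1.10), Rspo2 (-1.73) and Rspo3 (-1.43), and the receptors Ror1 (-0.85) and Ror2 (-0.95). Higher were Lgr5, a receptor of R-spondins, at 2.12, the receptor gene Fzd4 at 1.54, the target Sp5 at 3.51, the inhibitor Dkk2 at 1.57 and the ligand Wnt16 at 1.34. Lgr5 lay at 6.17, 6.33 and 7.04 on the GFP+ arrays against 4.51, 4.08 and 4.58 on the GFP- arrays. Sp5 measured 7.15, 6.90 and 8.64 in GFP+ and 4.24, 4.16 and 3.76 in GFP- cells. Control GFP+ replicate 3 was the highest array for both. The general targets Axin2 (-0.40, adjusted p = 0.35) and Lef1 (0.07, adjusted p = 0.792) were not called. With 1 array left out, the call ended for Wnt16 (control GFP+ replicates 1 or 3 or GFP- replicates 2 or 3), Ror1 (any of the 6), Sfrp1 (GFP- replicates 1 or 2) and Rspo1 (control GFP+ replicate 2 or GFP- replicates 1 or 2), with adjusted p values of up to 0.115.

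Of 31 BMP and TGF beta genes, 5 were called lower and 3 higher. The ligand genes Bmp2, Bmp4 and Bmp7 were lower. Bmp4, of mesenchyme and ridge, was at 7.98, 7.74 and 8.39 on the control GFP+ arrays and at 9.38, 9.71 and 9.51 on the GFP- arrays, a log2 fold change of -1.50 (SE 0.22, adjusted p = 0.0034). Bmp7 was at -1.17 (adjusted p = 0.00216) and Bmp2 at -1.07 (adjusted p = 0.017). Bambi, a decoy receptor, was at -1.33 (adjusted p = 0.0025). Fst, the gene of follistatin, which binds activins and BMPs, had 7.69, 7.50 and 7.91 in the GFP+ cells and 5.78, 5.61 and 5.96 in the GFP- cells, a log2 fold change of 1.91 (SE 0.23, adjusted p = 0.00111). The receptor gene Bmpr1b was higher too, at 0.83 (adjusted p = 0.0119). Bmp4 and Fst showed no overlap of the groups. Of the target genes, Id3 had 0.79 (adjusted p = 0.0152), Id4 -0.82 (adjusted p = 0.0238) and Id1 -0.49 (adjusted p = 0.575). The call ended without single arrays for Bmp2 (control GFP+ replicate 1 or GFP- replicates 2 or 3), Id3 (control GFP+ replicate 2 or GFP- replicates 1 or 3) and Id4 (control GFP+ replicates 1 or 2 or GFP- replicates 2 or 3), with adjusted p values of up to 0.0835. The count of lower genes was 3 without control GFP+ replicate 1 or GFP- replicate 2.

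Of 21 Notch genes, 4 were called higher and 1 lower. Dll1, the ligand that keeps muscle progenitors undifferentiated, lay at 8.01, 8.09 and 7.41 on the GFP+ arrays against 5.62, 5.72 and 5.27 on the GFP- arrays, a log2 fold change of 2.30 (SE 0.22, adjusted p = 2.91e-04). Dll3, which acts within the cell, was at 1.35 (adjusted p = 0.00389), Hes6, an inhibitor of Hes1, at 1.31 (adjusted p = 0.00564) and Heyl, a target, at 1.22 (adjusted p = 0.0221). Jag1, another ligand, measured 5.96, 6.28 and 6.54 in GFP+ and 7.51, 7.60 and 7.08 in GFP- cells, a log2 fold change of -1.14 (SE 0.27, adjusted p = 0.0326). The receptors Notch1 (0.37, adjusted p = 0.261) and Notch3 (-0.18, adjusted p = 0.593) and the target Hes1 (0.45, adjusted p = 0.151) were not called. Calls that ended when 1 array was left out were those of Heyl (control GFP+ replicates 1 or 2 or GFP- replicates 1, 2 or 3) and Jag1 (control GFP+ replicates 1 or 2 or GFP- replicates 1 or 2), with adjusted p values of up to 0.109. Without GFP- replicate 3, 2 Notch genes were called lower.

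Enzymes of retinoic acid lay on opposite sides. Rdh10, which makes retinaldehyde, was at 8.31, 8.71 and 8.36 on the control GFP+ arrays and at 7.36, 7.60 and 7.82 on the GFP- arrays, a log2 fold change of 0.87 (SE 0.16, adjusted p = 0.0124). Cyp26b1, which degrades retinoic acid in the distal bud, had 8.14, 7.68 and 7.12 in the GFP+ cells and 10.11, 9.48 and 9.40 in the GFP- cells, a log2 fold change of -2.02 (SE 0.31, adjusted p = 0.00442). Neither overlapped between the groups. The receptor gene Rarg was lower, at -1.70 (adjusted p = 0.00518). So 1 of 16 genes (6.25%) was called higher and 2 (12.5%) lower, against 2.79% and 1.93% of all genes. The other 13 of 16 genes were not called, Aldh1a2, the main enzyme of retinoic acid synthesis, among them at 0.59 (adjusted p = 0.333), and 2 were called higher without control GFP+ replicate 3.

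Of 44 adhesion and matrix genes, 6 were called higher and 10 lower. Cdh15, M-cadherin, lay at 8.13, 8.11 and 7.87 on the GFP+ arrays against 5.30, 5.24 and 5.57 on the GFP- arrays, a log2 fold change of 2.67 (SE 0.16, adjusted p = 2.00e-05). Itga4, the alpha4 integrin, measured 8.02, 8.33 and 7.33 in GFP+ and 5.16, 5.38 and 5.93 in GFP- cells, a log2 fold change of 2.41 (SE 0.32, adjusted p = 0.00204). Vcam1, whose product is a ligand of that integrin, was at 7.37, 7.70 and 7.10 on the control GFP+ arrays and at 9.43, 9.52 and 9.31 on the GFP- arrays, a log2 fold change of -2.03 (SE 0.25, adjusted p = 0.00132). The groups lay apart for all 3, Itga4 and Vcam1 in opposite directions. Postn, the matrix protein periostin, had 9.19, 9.69 and 8.37 in the GFP+ cells and 5.96, 6.03 and 6.32 in the GFP- cells, a log2 fold change of 2.98 (SE 0.40, adjusted p = 0.00218). Ncam1 was at 0.91 (adjusted p = 0.00762). On the lower side were Itga8, a mesenchymal integrin, at -1.31, Cdh11 at -0.69 and the fibrillar collagens Col1a1 (-1.26), Col1a2 (-0.79) and Col3a1 (-1.14). Cdh2, N-cadherin, was not called, at 0.26 (adjusted p = 0.581). Col1a1 lost its call without GFP- replicate 1 (adjusted p = 0.0523).

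Of 42 guidance genes, 5 were called higher and 8 lower, among the latter Robo2, a Slit receptor, at -2.53, Sema5a at -1.81 and Nrp2, a semaphorin receptor, at -1.11. Epha4 lay at 8.59, 7.85 and 8.13 on the GFP+ arrays against 10.25, 10.13 and 9.20 on the GFP- arrays. The higher ones were Sema3c (1.45), Plxnd1 (1.04), Slit2 (0.97), Plxna2 (0.91) and Epha5 (0.69). With 1 array left out, the call ended for Sema3c (control GFP+ replicates 1 or 2 or GFP- replicates 1 or 2), Plxnd1 (control GFP+ replicates 1, 2 or 3 or GFP- replicates 1 or 2) and Epha5 (control GFP+ replicates 1, 2 or 3 or GFP- replicates 1 or 3), with adjusted p values of up to 0.14. The count of guidance genes called higher was 2 without control GFP+ replicate 1 or GFP- replicate 1, 3 without control GFP+ replicates 2 or 3 or GFP- replicate 2, and 4 without GFP- replicate 3.

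Neural genes were called higher in the GFP+ cells at a larger share than all genes. Of 51 neural tube and neuron markers, 14 were called higher and 1 lower, and of 19 neural crest and glia markers 6 and 4. Sox2, of neural progenitors, measured 7.08, 7.14 and 7.14 in GFP+ and 2.92, 2.90 and 2.79 in GFP- cells, a log2 fold change of 4.25 (SE 0.40, adjusted p = 2.92e-04). Zic1, a zinc finger gene of the dorsal neural tube and somite, was at 6.72, 6.27 and 7.04 on the control GFP+ arrays and at 2.92, 3.14 and 2.51 on the GFP- arrays, a log2 fold change of 3.82 (SE 0.24, adjusted p = 2.70e-05). Nefl, a neurofilament, had 6.97, 7.07 and 6.61 in the GFP+ cells and 4.06, 4.19 and 4.20 in the GFP- cells, a log2 fold change of 2.73 (SE 0.24, adjusted p = 1.68e-04). Fabp7, a lipid-binding protein of glial precursors, lay at 7.60, 7.84 and 7.54 on the GFP+ arrays against 3.49, 3.67 and 3.86 on the GFP- arrays, a log2 fold change of 3.98 (SE 0.31, adjusted p = 9.37e-05). The groups stood apart for each of these genes, and the GFP+ arrays lay close together for Sox2. Nefm, Tubb3, Dbx1 and Nes were also called higher, at 3.55, 2.01, 3.42 and 1.24. Elavl3 was not called on its brightest probe set, at 0.40 (adjusted p = 0.156), while 2 of its 3 probe sets were called higher. Pax6, Olig2, Nkx2-2 and Isl2, of other neural tube cells and motor neurons, were at 0.34, 0.05, 0.04 and 0.04 and were not called. Of the 5 probe sets of Pax6, however, 1 was called higher, at 0.93 (adjusted p = 0.0159). Zic5, a paralogue of Zic1, was the 1 called lower, with 3 lower without GFP- replicate 3: it measured 5.21, 4.83 and 3.97 in GFP+ and 7.53, 7.54 and 7.57 in GFP- cells, a log2 fold change of -2.88 (SE 0.32, adjusted p = 7.14e-04).

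Some neural crest genes varied among the GFP+ arrays. Sox10, of crest and Schwann precursors, was at 8.43, 8.77 and 7.63 on the control GFP+ arrays and at 6.32, 6.45 and 6.18 on the GFP- arrays, a log2 fold change of 1.96 (SE 0.31, adjusted p = 0.00548). Ednrb, the endothelin receptor of crest cells, had 8.64, 9.24 and 7.02 in the GFP+ cells and 4.62, 5.22 and 6.12 in the GFP- cells, a log2 fold change of 2.98 (SE 0.70, adjusted p = 0.0329). Erbb3, a receptor of Schwann precursors, lay at 8.81, 9.64 and 6.66 on the GFP+ arrays against 5.92, 6.25 and 7.28 on the GFP- arrays and was not called, at 1.89 (adjusted p = 0.113). Control GFP+ replicate 3 was the lowest of its group for each. Without it Erbb3 was called higher at 2.74 (adjusted p = 0.00533), and 10 of the 19 markers were. Ngfr had 8.48, 8.58 and 7.93 in the GFP+ cells and 6.68, 6.69 and 6.72 in the GFP- cells, at 1.64 (adjusted p = 0.00127). Foxd3 had 4.74, 5.62 and 4.82 in the GFP+ cells and 3.90, 3.74 and 3.52 in the GFP- cells, at 1.34 (adjusted p = 0.00996). Both were called higher, also with any of the 6 arrays left out. The AP2 gene Tfap2c, of ectoderm and crest, was lower, at -1.64 (adjusted p = 0.00473), and Zeb2 was higher, at 2.22 (adjusted p = 0.00373). Ednrb lost its call without control GFP+ replicates 1 or 2 or GFP- replicates 1 or 2 (adjusted p up to 0.114). The count of crest markers called lower was 1 or 2 with any of the 6 arrays left out. The neural list lay 0.29 to 0.39 above its 6-array mean on the control GFP+ arrays and 0.30 to 0.41 below it on the GFP- arrays, and the crest list -0.03 to 0.69 against -0.55 to -0.20. The summed level of the neural list (log2) was 11.82 to 11.98 on the control GFP+ arrays and 11.32 to 11.64 on the GFP- arrays. That of the crest list overlapped, at 11.07 to 12.02 on the control GFP+ arrays and 10.61 to 11.20 on the GFP- arrays. Neither list's part in other results was tested.

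Genes of the sclerotome and of cartilage were called in both directions. Uncx, of the posterior sclerotome, measured 5.97, 5.23 and 7.19 in GFP+ and 3.28, 3.47 and 3.71 in GFP- cells, a log2 fold change of 2.64 (SE 0.46, adjusted p = 0.00858). Foxc2, of paraxial mesoderm, was at 7.30, 7.47 and 7.47 on the control GFP+ arrays and at 5.47, 5.28 and 4.86 on the GFP- arrays, a log2 fold change of 2.21 (SE 0.22, adjusted p = 4.18e-04). Foxd1 was at 2.08. Pax1, of the sclerotome and the shoulder girdle, had 5.21, 5.36 and 4.79 in the GFP+ cells and 7.40, 7.12 and 6.48 in the GFP- cells, a log2 fold change of -1.88 (SE 0.23, adjusted p = 0.00139). All 3 kept the groups apart. The cartilage genes Sox9 (-1.70, adjusted p = 0.0131) and Col9a1 (-1.76, adjusted p = 6.85e-04) were lower, as was Tbx18 (-2.04, adjusted p = 4.30e-05). Of 22 markers, 4 were called higher and 8 lower. Sox9 lost its call without GFP- replicates 1 or 2 (adjusted p up to 0.0527). Without GFP- replicate 1, 5 were called lower.

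Ectoderm, vessel and blood markers moved with single arrays. Of 34 ectoderm markers, 5 were called lower, 13 without GFP- replicate 1, and 2 without control GFP+ replicates 1 or 3 or GFP- replicates 2 or 3. Cdh1, E-cadherin, lay at 3.54, 3.79 and 2.54 on the GFP+ arrays against 4.16, 5.05 and 6.09 on the GFP- arrays, a log2 fold change of -1.81 (SE 0.45, adjusted p = 0.0425). Epcam, an epithelial adhesion protein, measured 6.98, 7.36 and 5.65 in GFP+ and 7.82, 8.15 and 9.11 in GFP- cells and was not called, at -1.70 (adjusted p = 0.0592). Trp63, the master factor of the epidermis, was at 5.33, 5.36 and 4.49 on the control GFP+ arrays and at 5.77, 6.84 and 8.09 on the GFP- arrays, at -1.84 (adjusted p = 0.0553). GFP- replicate 3 was the highest array and control GFP+ replicate 3 the lowest for all 3. Of 28 endothelial markers, 0 were called in either direction by limma, with Kdr, the VEGF receptor, at 8.53, 9.11 and 8.22 in GFP+ and 6.83, 7.46 and 8.40 in GFP- cells, at 1.06 (adjusted p = 0.141). At an unadjusted p under 0.05, 9 of them passed, and without 1 array at most 2 were called higher (control GFP+ replicate 3) and 1 lower. Of 17 erythroid markers, 2 were called lower, Klf1 (-2.40, adjusted p = 0.0309) and Nfe2 (-1.61, adjusted p = 0.0321), with 12 without GFP- replicate 1, 1 without control GFP+ replicate 2 or GFP- replicate 3, and 0 without any other array. Of 19 macrophage markers, 0 were called by limma and 3 passed at an unadjusted p under 0.05. Of all 45037 probe sets, 5077 passed that unadjusted limit as higher and 4682 as lower. Csf1r, a receptor of macrophages, had 7.88, 8.55 and 6.17 in the GFP+ cells and 8.65, 8.78 and 8.83 in the GFP- cells. The call ended without single arrays for Cdh1 (control GFP+ replicates 1, 2 or 3 or GFP- replicates 2 or 3), Cldn7 (control GFP+ replicates 1 or 3 or GFP- replicates 2 or 3), Perp (control GFP+ replicates 1 or 3 or GFP- replicates 2 or 3), Klf1 (control GFP+ replicates 1 or 3 or GFP- replicates 2 or 3) and Nfe2 (control GFP+ replicates 1, 2 or 3 or GFP- replicate 2), with adjusted p values of up to 0.118.

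**Figure D4:**
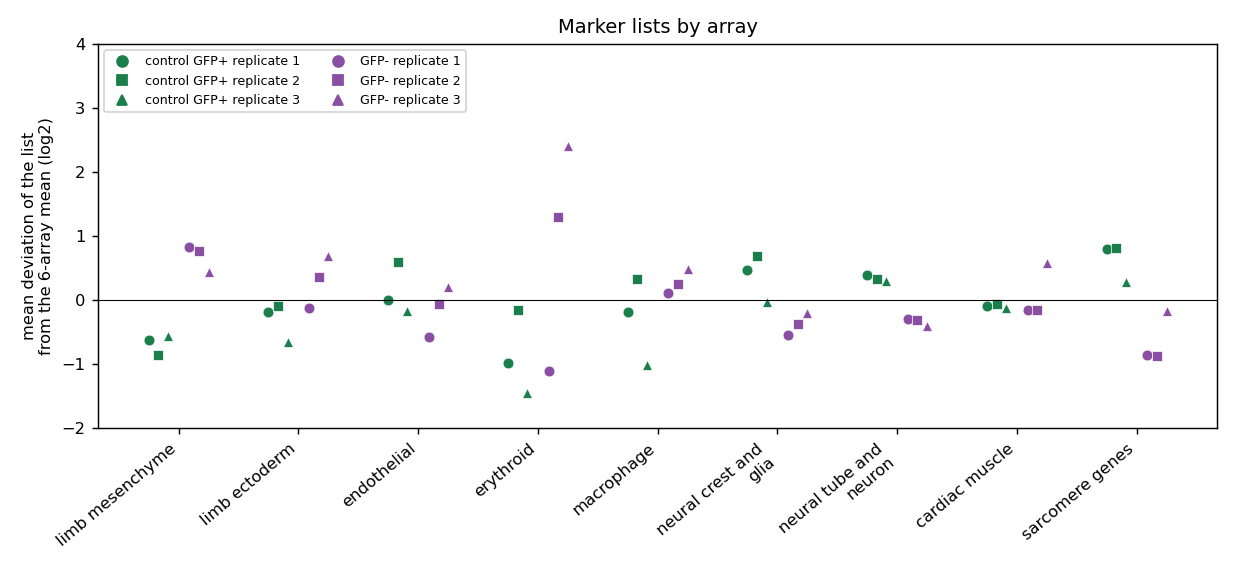
Mean deviation of each marker list from its mean over the 6 arrays (log2), on the 3 control GFP+ arrays (green) and the 3 GFP- arrays (purple). The mesenchyme, neural crest, neural tube and sarcomere lists separate the groups, while the erythroid list runs from -1.45 to 2.41 with overlap and the cardiac list stands out only on GFP- replicate 3, at 0.58.

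Of 31 cell cycle genes, 1 (3.23%) was called higher and 2 (6.45%) lower, against 2.79% and 1.93% of all genes. Cdkn1a, the cyclin-dependent kinase inhibitor p21, lay at 9.51, 9.25 and 9.05 on the GFP+ arrays against 6.79, 6.41 and 6.14 on the GFP- arrays, a log2 fold change of 2.82 (SE 0.22, adjusted p = 9.37e-05). Mki67, a marker of cycling cells, measured 10.89, 11.02 and 10.90 in GFP+ and 11.56, 11.78 and 12.20 in GFP- cells, a log2 fold change of -0.91 (SE 0.16, adjusted p = 0.00774). The groups did not overlap for either. The cyclins Ccnd1 (-0.16, adjusted p = 0.691) and Ccnd2 (0.10, adjusted p = 0.772) were not called. Among imprinted growth genes, 1 of 16 (6.25%) was called higher and 2 (12.5%) lower. Dlk1 was at -1.22 (adjusted p = 0.00621), while Igf2 (-0.15, adjusted p = 0.417) and Cdkn1c (0.46, adjusted p = 0.148) were not called. Calls that ended when 1 array was left out were those of Tyms (control GFP+ replicates 1 or 2 or GFP- replicates 1, 2 or 3), Meg3 (control GFP+ replicates 1 or 2 or GFP- replicates 1, 2 or 3) and Ndn (control GFP+ replicates 1, 2 or 3 or GFP- replicates 1 or 3), with adjusted p values of up to 0.115. Without control GFP+ replicate 3, 2 cell cycle and 2 imprinted genes were called higher.

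Of 22 immediate early and stress genes, 1 (4.55%) was called higher and 2 (9.09%) lower, against 2.79% and 1.93% of all genes. Fos was at 9.23, 7.67 and 8.46 on the control GFP+ arrays and at 10.37, 10.58 and 10.04 on the GFP- arrays, a log2 fold change of -1.88 (SE 0.40, adjusted p = 0.0206). Jun (0.32, adjusted p = 0.276) and Egr1 (0.27, adjusted p = 0.729) were not called, and Hspa1a, induced by heat and handling, was at -0.26 (adjusted p = 0.721). Egr2, a factor of rhombomeres and Schwann cells, was higher, at 1.18 (adjusted p = 0.00394). With 1 array left out, the call ended for Fos (control GFP+ replicate 2 or GFP- replicates 1 or 2) and Ccn2 (GFP- replicates 1 or 2), with adjusted p values of up to 0.0763. Without GFP- replicate 3, 4 were called lower.

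**Figure D5:**
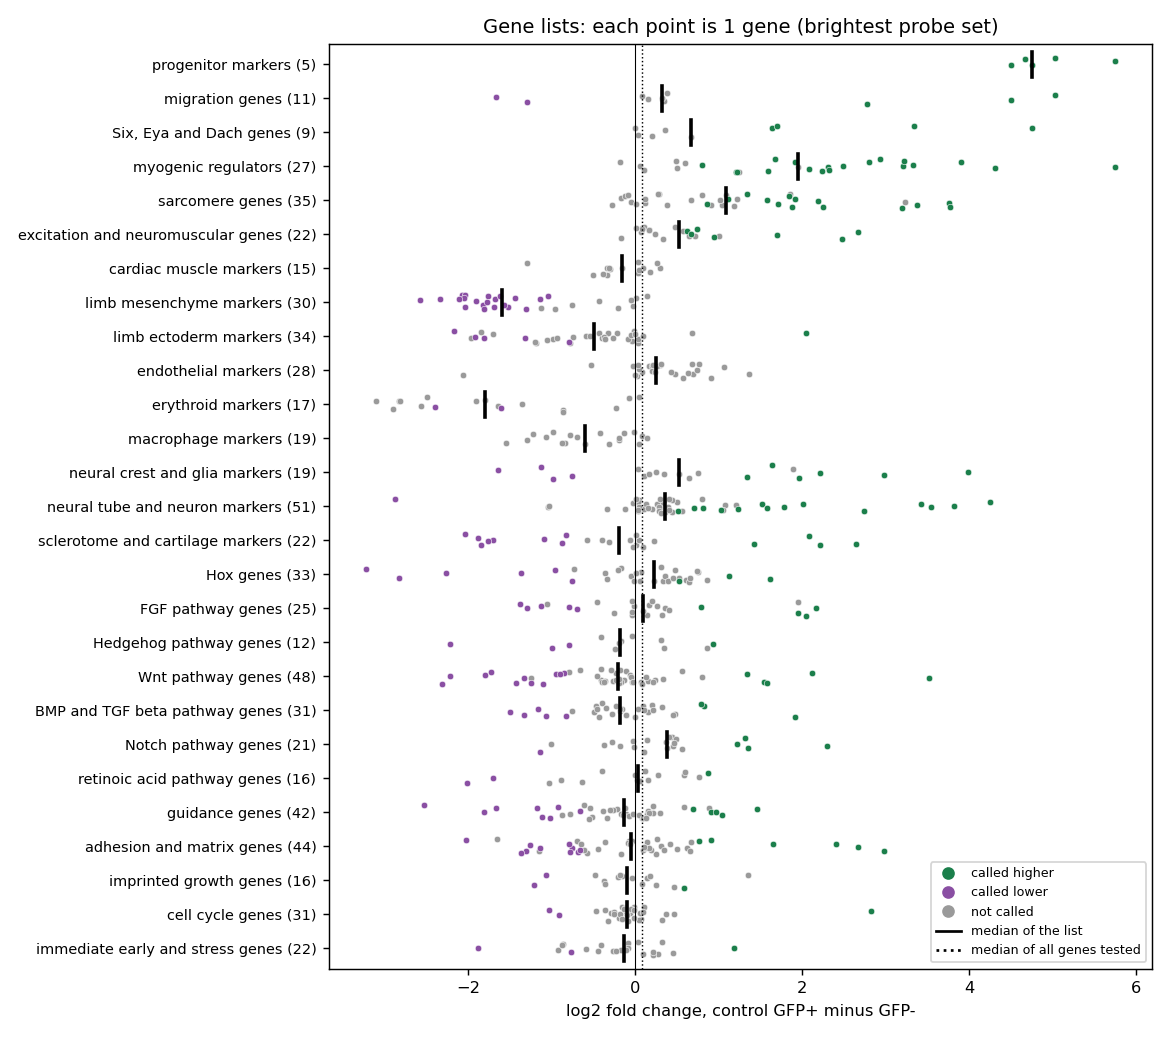
Log2 fold change (control GFP+ minus GFP-) of every measured member of 27 gene lists, with the number of members in brackets; green points were called higher, purple lower and grey neither, black bars are list medians and the dotted line is the median of all genes tested, 0.08. Myogenic lists lie to the right, limb mesenchyme to the left, and the pathway lists hold called genes on both sides.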

How the data were processed

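RNA of cells sorted from E10.5 forelimb buds was amplified in 2 cycles from the 3' end, which favours 3' sequence, and hybridised to Affymetrix Mouse430_2 arrays. The authors deposited log2 levels from RMA, 1 for each probe set. RMA corrects background and gives all arrays a like distribution, so that changes are relative to it. The version of RMA is not given in the sources used here. No count or sequencing depth exists for arrays, and 3 arrays a group limit the precision. Groups came from the sample titles.

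From these values, limma 3.58.1 in R 4.3.3 was fitted to all 9 arrays and 45037 probe sets (64 array controls left out), with an intensity trend and 1 mean per group. The test was two-sided, adjusted by Benjamini-Hochberg over all probe sets. The methods' absent-call filter could not be applied, as no detection calls were used here, and their local pooled error test, rebuilt from its description, was run as an alternative. Probe sets were named from GEO's platform annotation (34945 with 1 symbol, 932 with several, 9160 with none), and promoters were taken from RefSeq (GRCm38.p6).

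The comparison, the gene lists and their core members were chosen with earlier results of these data known. Genes to name were the progenitor markers, the core members and the 12 largest calls per direction with groups that do not overlap. Up to 4 further called members of a list with the smallest adjusted p were added. Not all of these are described above: Twist1 and Dach1, core members that were not called, are among those left out. Others, such as Mef2c, Tnnt2, Ttn, Ryr1, Sp5, Hoxd8, Hoxb9, Meis2, Olig2, Id4, Col1a2, Gab1 and the remaining members of counts given by name, were named after their values were seen. List members without a probe set of a single symbol were not analysed here. The fit was tested on simulated data of the same size, where it recovered 79 and 99 of 100 probe sets changed by a log2 of 1 and 2, with 7 false calls. Alternatives changed centring, normalization, trend, weights, the arrays in the fit, filters on low values, thresholds, the test, the probe set per gene and each array left out.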

Additional observations from a re-analysis of the deposited data

How the results depend on the processing

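Of 210 named genes, 136 were called. Of these, 110 kept their call and 0 of the 136 changed sign under the 12 to 14 settings run for each gene. Those settings changed centring, normalization, trend, weights, block, filters and the arrays in the fit. They did not include other thresholds, the local pooled error test, probe sets left out, or both arrays numbered 3 left out. The 827 higher and 1804 lower probe sets became 472 to 905 and 1070 to 1882 when 1 array was left out: 673 and 1356, 563 and 1070, and 905 and 1882 without control GFP+ replicates 1, 2 and 3 in turn, then 472 and 1129, 528 and 1324, and 580 and 1158 in the same order of GFP- replicates. Fewer samples enter these fits. With array weights they were 1254 and 2488, and the cause was not tested. With only the 6 arrays compared in the fit, 601 and 1335 were called, 566 and 1297 of them shared with the main fit. Spry1, Klf1, Nfe2, Cdh1, Cldn7, Perp, Meg3, Tyms and Ndn lost their calls in that fit. A log2 threshold of 1, stricter by construction, left 368 and 1101. The local pooled error test gave 662 and 1763, of which 467 and 1290 were shared with limma, and made 143 false calls on simulated data against 7. Without both arrays numbered 3, an alternative added after seeing the data, 803 and 1559 were called. With the replicate number as a block, 859 and 2314 were called. Deviations of same-numbered arrays correlated at 0.07, 0.07 and -0.20, and no control GFP+ array correlated best with its own number. With 3 arrays a group, such correlations cannot show whether the numbers pair the samples.

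The values that changed sign belong to genes that were not called, and the cause was not tested. Quantile normalization turned Wnt7a to 0.0378, and array weights turned Wnt7a to 0.17, Tgfb2 to 0.13 and Ccnd2 to -0.0419. With 1 array left out, log2 fold changes ran from -0.19 to 0.20 for Wnt7a and from -0.37 to 0.16 for Tgfb2, both positive without control GFP+ replicate 3. Ccnd2 ran from -0.0345 to 0.20, negative without control GFP+ replicate 3 or GFP- replicate 3, as was Egr1, from -0.03 to 0.78. Pax9 ran from -0.18 to 0.26 and was negative without control GFP+ replicates 1 or 2 or GFP- replicates 2 or 3. Atf3 ran from -0.0189 to 0.14, Pecam1 from -0.0442 to 0.31, Cdh5 from -0.0428 to 0.86, Tie1 from -0.18 to 0.57 and Tek from -0.21 to 0.73, all lowest without control GFP+ replicate 2. Hoxa13 ran from -0.11 to 0.0171 and Ccnd1 from -0.37 to 0.0697, highest without GFP- replicate 1. Efna5 ran from -0.0522 to 0.19, negative without GFP- replicate 2. Myl7 ran from -0.70 to 0.33 and Myh6 from -2.06 to 0.0922, positive without GFP- replicate 3.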

Other observations

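The calls differed in direction with the annotation of the probe sets. Of 10092 probe sets without a single gene symbol, 71 (0.704%) were called higher and 879 (8.71%) lower, with a median level of 4.13 (log2). Of the 18193 brightest probe sets of named genes, 2.79% were called higher and 1.93% lower, at a median level of 6.12. Of 16752 further probe sets of named genes, 249 (1.49%) were called higher and 574 (3.43%) lower, at a median level of 4.98. Level and annotation move together here, and their part in the direction was not tested. For 5 genes, 1 probe set was called higher and another lower.

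Both Xist, of female cells, and Eif2s3y, of the Y chromosome, were measured on all 6 arrays. Xist lay at 9.16 to 10.12 on the control GFP+ arrays and at 10.14 to 11.31 on the GFP- arrays, and Eif2s3y at 7.28 to 7.68 and 7.89 to 8.17. For all 4 sex-linked genes measured, Kdm5d and Uty among them, every GFP+ array lay below every GFP- array, as for 6.96% of all genes. None of the 4 was called on its brightest probe set, and 1 of 3 Xist probe sets and 1 of 4 Uty probe sets were called lower. The part of sex in the results was not tested.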
